A study of Mus musculus with 28 samples.

Results

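Transcripts of the enzymes that make eicosanoids were followed in tissue that grew into an implanted scaffold in healthy and tumor-bearing mice. The genes were taken by symbol, as all assays whose symbol starts with Alox, Ptg, Pla2, Ltc4, Lta4, Cyslt or Tbxa. This gave 16 assays for 11 genes, of the 648 assays and 584 symbols on the panel. No assay on the panel has a symbol starting with Ltc4, Cyslt or Tbxa, so the set holds enzymes and Alox5ap, the partner protein of Alox5, and no receptor. It has 4 assays for phospholipases A2 (Pla2g2d, Pla2g2e, Pla2g4c and Pla2g7), 9 for the lipoxygenase arm (6 for Alox5, 1 each for Alox5ap, Lta4h and Alox15) and 3 for the cyclooxygenase arm (Ptgs1, Ptgs2 and Ptges).

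The mice were female BALB/c animals carrying a porous polycaprolactone scaffold, and 14 were healthy and 14 had been inoculated with 4T1 cells (4T1-luc2-tdTomato), a mouse mammary carcinoma line. Scaffolds were taken at day 7 (3 mice per condition), day 14 (8 per condition) and day 21 (3 per condition), and all 28 mice carried the implant, so the healthy group is a foreign-body response without a tumor. Because the cell line is also listed for healthy animals in the labels, groups were formed from the condition given at analysis. RNA was measured by TaqMan RT-qPCR on 7 physical OpenArray panels, named A to G here. Panel D holds only healthy and panel G only tumor-bearing day 14 samples, 4 each. Day 7 samples lay on panels A, B and C, and day 21 samples on panels C, E and F.

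Eicosanoids are lipid signals cut from membranes and oxidized on demand. A phospholipase A2 releases arachidonic acid, which the lipoxygenase arm turns into leukotrienes, attractants and activators of leukocytes, and the cyclooxygenase arm into prostaglandins, which act on vessels, pain and immune cells. The leukotriene arm is known mainly from neutrophils, macrophages and mast cells, while the inducible cyclooxygenase Ptgs2 is a classic gene of inflammation and of many carcinomas.

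Values are log2 normalized quantities: reference cycle minus assay cycle, so a value 1 higher means about 1 doubling more template relative to the reference genes. Levels of different assays cannot be set against each other, because each assay has its own amplification efficiency. In every sample 14 to 16 of the 16 assays gave a quantification cycle (Cq). Both missing reactions, of Alox5 assay Mm01182749_m1 and of Alox5ap, were in healthy day 14 replicate 14. That sample lacked a Cq in 113 of 648 reactions, healthy replicate 13 in 173 and tumor-bearing day 14 replicate 21 in 159, against 61 to 88 in the other 25 samples. For some members in which these samples hold extreme values, a value without them or without the stray reaction is given. For the day 14 differences of Pla2g2d and Pla2g4c it is not given. Their highest healthy day 14 values (-1.30 and -6.58) were in healthy replicate 14.

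The labelled tissue is an infiltrate of immune, stromal and epithelial cells, and markers of each were present. The macrophage mannose receptor Mrc1, the fibronectin gene Fn1 and the neutrophil gene S100a9 gave a value in 28 of 28 samples, and the keratin Krt8 in 23. In a bulk sample, fewer cells of a type and less RNA per cell cannot be told apart.

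For 9 of the 11 genes promoter windows of 250 bases before a start (GRCm38.p6) were listed, 10 in all, with Pla2g4c listed more than once. The window ends at the RefSeq start of the gene for Alox5, Lta4h, Pla2g2d and Ptgs2. For Pla2g2e, Pla2g4c, Pla2g7, Ptges and Ptgs1 it does not. The windows of the member that rose most, of the gene measured by 6 assays and of the inducible cyclooxygenase are printed. They run 5′ to 3′ on the strand of the gene, with the GC box GGGCGG and the CCAAT box, read on both strands, in capitals. They lie at chr4:138775485-138775734 (plus strand, Pla2g2d), chr6:116461179-116461428 (minus strand, Alox5) and chr1:150099781-150100030 (plus strand, Ptgs2).
Pla2g2d: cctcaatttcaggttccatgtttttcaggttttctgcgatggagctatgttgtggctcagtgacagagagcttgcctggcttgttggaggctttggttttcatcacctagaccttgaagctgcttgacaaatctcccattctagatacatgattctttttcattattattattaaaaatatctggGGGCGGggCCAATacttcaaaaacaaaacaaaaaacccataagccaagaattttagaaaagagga
Alox5: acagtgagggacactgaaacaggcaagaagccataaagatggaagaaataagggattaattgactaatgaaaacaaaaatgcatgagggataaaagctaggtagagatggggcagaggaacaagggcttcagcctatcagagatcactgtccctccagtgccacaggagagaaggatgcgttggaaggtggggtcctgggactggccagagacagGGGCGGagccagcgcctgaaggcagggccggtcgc
Ptgs2: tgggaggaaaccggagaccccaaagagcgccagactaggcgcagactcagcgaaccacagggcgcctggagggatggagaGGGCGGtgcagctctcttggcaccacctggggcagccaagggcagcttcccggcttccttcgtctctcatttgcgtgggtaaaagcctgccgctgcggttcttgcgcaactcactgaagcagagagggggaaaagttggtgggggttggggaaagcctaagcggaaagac
The GC box starts 65 bases before the start in Pla2g2d, 35 in Alox5 and 170 in Ptgs2. It was found in 5 of the 9 genes (Alox5, Pla2g2d, Pla2g7, Ptges and Ptgs2), against 32.7% of 32851 mouse promoters of this length. CCAAT was found in 3 (Lta4h, Pla2g2d and Pla2g4c), against 33.8%, and none held TATAAA (12.4% of all) or CACGTG (6.02%) on either strand. These matches only describe the letters in the window.

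No eicosanoid gene passed the test between tumor-bearing and healthy mice at any day. With limma and Benjamini-Hochberg adjustment over all assays, 0 of 16 assays had an adjusted p under 0.05 at day 7 (0% of all 565 assays tested passed), at day 14 (2.38% of 588; 1.7% higher and 0.68% lower) and at day 21 (1.22% of 573; 1.05% higher and 0.175% lower). The same count was 0 for the mean of the 3 days, where 2.5% of 559 assays passed (1.79% higher and 0.716% lower). Without adjustment, 0, 0 and 0 of the 16 had p under 0.05 at days 7, 14 and 21, against 2.12%, 10.5% and 9.08% of all assays tested, and 1 of 16 for the mean of the days, against 8.77%. The median difference of the 16 assays was 0.09, -0.08 and 0.09 at the 3 days, beside 0.03, -0.08 and 0 over all assays tested. The tumor effect did not pass for any of the 16 when days were set against each other (0% of 564, 560 and 571 assays in the 3 comparisons; 0 of 16 also without adjustment).

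Markers of neutrophils, which carry the leukotriene enzymes, were higher with the tumor at the later days: 0 of 9 assays passed at day 7 (median difference 0.44), 9 of 9 at day 14 (median 2.17) and 4 of 9 at day 21 (median 1.76). The day 14 count was 5 when only the day 14 groups were fitted, 3 when reactions without a Cq were given the largest Cq and 6 to 9 when 1 sample was left out. At day 21 it was 0 with the largest Cq and 1 to 4 when 1 sample was left out. At day 14 the summed level of the 3 with a value in every sample spanned -1.66 to 0.69 without a tumor and -0.16 to 2.86 with one. This level is the log2 of the added linear quantities, so the assays with the highest values weigh most. None of the 9 was undetected throughout; Prtn3 had a value in 20 samples and Ela2 in 23. Beside this, Alox5 as 1 value per sample (the median of its 6 assays after each was centred on its own median over the samples, put back on the level of the median assay) differed by 0.05 ± 0.12 (SE, 95% interval -0.20 to 0.31, adjusted p = 0.908), Alox5ap by 0.16 ± 0.13 (adjusted p = 0.701) and Lta4h by 0.08 ± 0.12 (adjusted p = 0.862). Among 6 monocyte and macrophage markers, 0 passed at day 14 (median 0.11). The part of cell composition in these values was not tested.

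**Figure D1:**
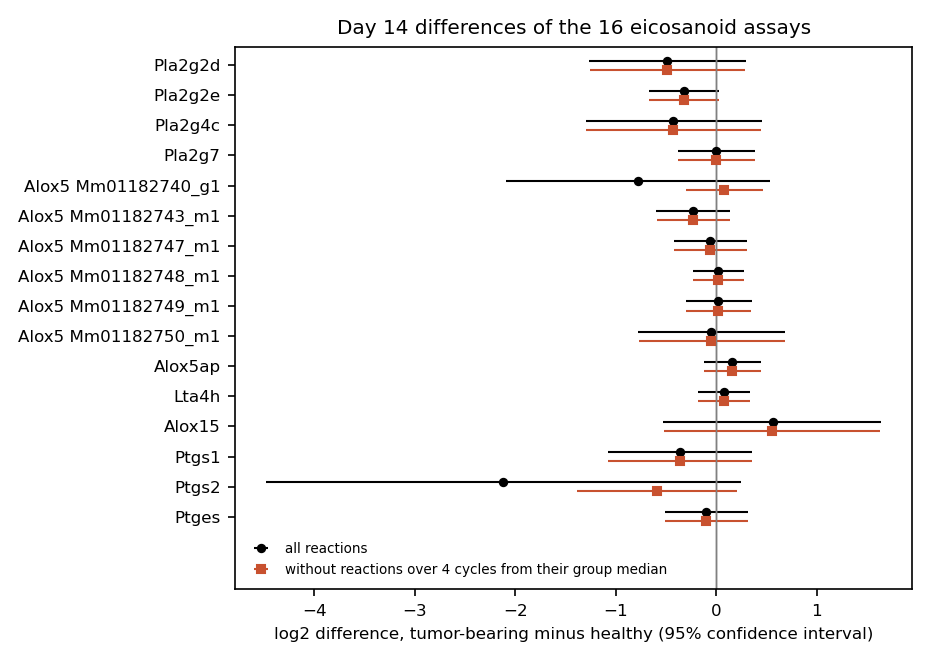
Log2 difference of tumor-bearing minus healthy mice at day 14 for each of the 16 assays (points) with the 95% confidence interval (lines), with all reactions (black) and with reactions over 4 cycles off the group median left out (orange). Every interval crosses 0, and Ptgs2 and Alox5 Mm01182740_g1 move most between the 2 settings.

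Pla2g2d encodes a secreted phospholipase A2 known from antigen-presenting cells of lymphoid tissue, where its lipid products dampen immune responses. Its values at day 7 were -3.57, -2.91 and -2.90 in healthy and -3.84, -3.15 and -2.93 in tumor-bearing mice. At day 14 they ran from -3.53 through a median of -2.67 to -1.30 in healthy mice and from -4.38 through -2.74 to -2.03 in tumor-bearing mice. At day 21 they were -1.24, -0.98 and -0.97 in healthy and -2.98, -1.88 and -1.06 in tumor-bearing mice. All 3 healthy day 21 samples lay above every healthy sample of days 7 and 14, whereas tumor-bearing day 21 replicate 27 lay within the day 7 range.

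Averaged over both conditions, Pla2g2d rose by 1.69 ± 0.43 (SE) from day 7 to day 21, a 3.24-fold rise (95% interval 1.75 to 5.98; limma adjusted p = 0.0338). It was the 1 of 16 assays that passed in this comparison, in which 2.14% of 560 assays passed (1.61% higher and 0.536% lower). Without adjustment 5 of 16 had p under 0.05, against 16.8% of all assays. They were Pla2g2d, Pla2g7, Alox5ap and the Alox5 assays Mm01182748_m1 and Mm01182749_m1. Within healthy mice 0 of 16 passed (0% of 570), and within tumor-bearing mice 0 of 16 (0.529% of 567). Within conditions the rise was 2.06 ± 0.60 in healthy mice (adjusted p = 0.211) and 1.33 ± 0.60 in tumor-bearing mice (adjusted p = 0.529), and the difference between these 2 rises was -0.73 ± 0.83 (95% interval -2.44 to 0.99, adjusted p = 1). From day 14 to day 21 the averaged change was 1.23 ± 0.36 (adjusted p = 0.077), and none of the 16 assays passed there (0.876% of 571 assays did; without adjustment 1 of 16 did, against 19.4% of all assays). The rise from day 7 was 1.66 when panels entered as a fixed block, and did not pass (adjusted p = 0.201). Only panel C held samples of both days, so day and panel can be told apart only in small part. It also lost the call without any 1 of 10 of the 12 mice of these days (healthy replicates 1, 2, 3, 23, 24 and 25, tumor-bearing replicates 5, 6, 26 and 28), with a rise of 1.47 to 1.76 and an adjusted p of 0.0605 to 0.115.

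Pla2g2d at day 14 differed by -0.49 ± 0.38 between tumor-bearing and healthy mice (adjusted p = 0.677) and at day 21 by -0.91 ± 0.59 (adjusted p = 0.729). The dendritic cell marker Ccr7, a chemokine receptor, was lower in tumor-bearing mice at day 21 (-1.18 ± 0.29, adjusted p = 0.0437) and in the mean of the days (-0.81 ± 0.15, adjusted p = 0.00252). The day 21 call was lost in 17 of 28 cases when 1 sample was left out (adjusted p up to 0.283) and with panels as a fixed block (adjusted p = 0.0983), and the other 4 dendritic cell markers did not pass there. Over time, the 5 dendritic cell markers measured (Ccr7, Cd40, Cd80, Cd86 and Xcr1) had 0 calls from day 7 to day 21 and a median change of 0.14. In healthy mice the summed level of the 3 with a value in every sample lay between -1.78 and -1.35 at day 7. At day 21 this level lay between -1.58 and -1.42, and the ranges overlap. In tumor-bearing mice it lay between -1.75 and -1.55 at day 7 and between -1.72 and -1.62 at day 21. Macrophage markers also had 0 calls of 6 (median -0.18), and 2 of 9 neutrophil assays were higher at day 21 (median 1.42). Their summed level in healthy mice was 0.15 to 1.30 at day 7 and 1.09 to 1.81 at day 21, and with a tumor 0.80 to 1.41 and 2.48 to 3.41. The part of these cells in the Pla2g2d rise was not tested.

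Pla2g2e, another secreted phospholipase A2, lies on chromosome 4 with Pla2g2d, with 2 genes (Pla2g5 and Gm13030) between them. Its day 7 values were -4.16, -4.05 and -3.98 in healthy and -4.26, -3.98 and -3.86 in tumor-bearing mice. At day 14 healthy values ran from -4.08 through a median of -3.62 to -2.42, and tumor-bearing values from -4.34 through -3.85 to -3.58. At day 21 the values were -3.79, -3.65 and -3.56 in healthy and -3.89, -3.69 and -3.69 in tumor-bearing mice. The day 14 groups overlapped, with a difference of -0.32 ± 0.17 (adjusted p = 0.521), and healthy replicate 13, a sample with many missing reactions, held the highest value. Tumor-bearing replicate 15 held the lowest, and a difference without that sample is not given. Without the 3 samples with over 100 missing reactions the difference was -0.12 (adjusted p = 0.813). From day 7 to day 21 its averaged change was 0.32 ± 0.19 (adjusted p = 0.476), against 1.69 for Pla2g2d.

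Pla2g4c, a cytosolic phospholipase A2, was read at a late median Cq of 26.7. Its day 7 values were -8.08, -7.89 and -7.37 in healthy and -8.71, -8.52 and -8.46 in tumor-bearing mice, which do not overlap. At day 21 healthy values were -7.98, -7.97 and -7.76 and tumor-bearing values -9.02, -8.93 and -8.35, again without overlap and again with the tumor-bearing mice lower. At day 14 the groups overlapped, from -9.09 through a median of -7.99 to -6.58 in healthy and from -11.14 through -8.24 to -6.93 in tumor-bearing mice. Tumor-bearing minus healthy, Pla2g4c stood at -0.78 ± 0.66 (day 7, adjusted p = 0.997), -0.43 ± 0.42 (day 14, adjusted p = 0.728) and -0.87 ± 0.66 (day 21, adjusted p = 0.820). As the mean of the 3 days it was -0.69 ± 0.34 (adjusted p = 0.553), and the tumor-bearing mouse was the lower one in 8 of 10 pairs matched for day and panel. The share of all assays with such a pair count was not computed, here or for the members below.

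Pla2g7, the secreted enzyme that degrades platelet-activating factor, had a median Cq of 17.2 and kept between 0.81 and 2.47 in all 28 samples. Its averaged change was 0.40 ± 0.17 from day 7 to day 14 (adjusted p = 0.228) and 0.56 ± 0.21 to day 21 (adjusted p = 0.196). The 3 day 21 samples lay above the 3 day 7 samples in each condition. Without healthy day 14 replicate 14 the day 21 change was 0.58 and passed (adjusted p = 0.0488).

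Non-overlap of 3 against 3 samples was common on this panel and is read against its background. Between tumor-bearing and healthy mice it was seen for 2 of 16 assays at day 7 (Alox15 higher and Pla2g4c lower; 7.88% of 520 assays with all values) and for 2 of 16 at day 21 (Alox5ap higher and Pla2g4c lower; 16.3% of 498). Between days 7 and 21 it was seen for 7 of 16 in healthy mice (26.8% of the assays with all values) and for 3 of 16 in tumor-bearing mice (14.5% of 495). Alox5ap, lower, and Pla2g7, higher, were apart in both conditions. The share of all assays apart in the same direction in both conditions was not computed. Nor was the share apart at both day 7 and day 21, as Pla2g4c was.

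**Figure D2:**
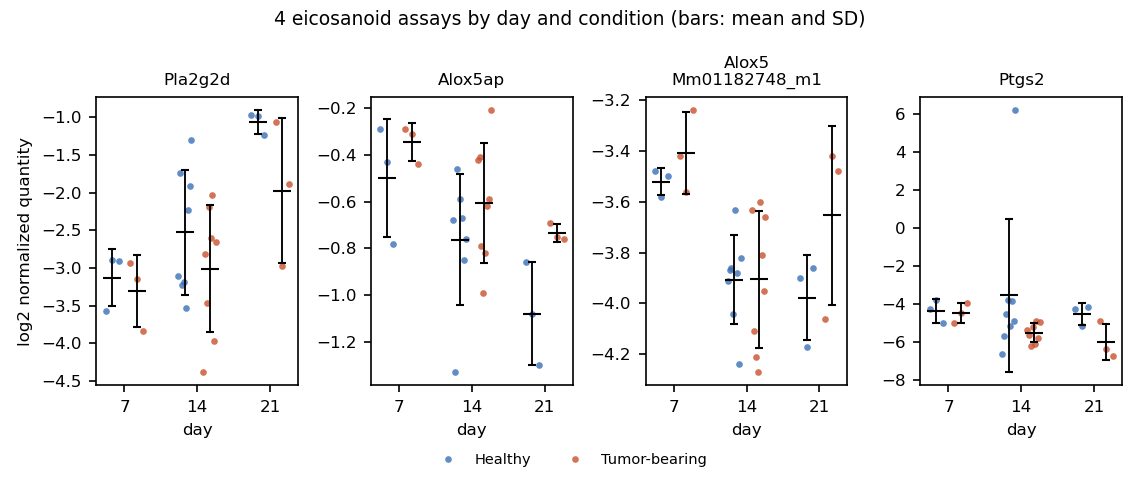
Log2 normalized quantity of Pla2g2d, Alox5ap, Alox5 (assay Mm01182748_m1) and Ptgs2 in each mouse by day and condition, with the group mean and SD as black bars, each panel on its own axis. Healthy Pla2g2d values at day 21 (-1.24 to -0.97) lie above all healthy values of days 7 and 14, and 1 healthy day 14 value of Ptgs2 (6.18) lies far above the rest. The share of all assays with healthy day 21 values above both earlier days was not computed.

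Alox5 encodes 5-lipoxygenase, which makes the first leukotriene from arachidonic acid, and its 6 assays allow each sample to be read repeatedly. The medians over all samples were -3.57 (Mm01182740_g1), -3.25 (Mm01182743_m1), -3.92 (Mm01182747_m1), -3.84 (Mm01182748_m1), -4.52 (Mm01182749_m1) and -4.40 (Mm01182750_m1), a range of 1.27 between assays of 1 transcript. After each assay was centred on its own median, 158 of 167 reactions (94.6%) lay within 0.5 of the median of the 6 in the same sample. The 3 reactions more than 1 away were all in healthy day 14 replicates 13 and 14.

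The SD over samples of the difference between 2 Alox5 assays ran from 0.23 (Mm01182748_m1 and Mm01182749_m1) to 1.28 (Mm01182740_g1 and Mm01182743_m1) over the 15 pairs, and from 0.23 to 0.65 without healthy replicate 14. None of the 15 pair differences differed between tumor-bearing and healthy mice at day 14 by a 2-sided exact permutation test (smallest p = 0.0527, smallest adjusted p = 0.401). In healthy replicate 14, assay Mm01182740_g1 gave a Cq of 16.3 against a group median of 22.4, hence a value of 2.36 where the other 7 healthy day 14 samples ran from -4.36 to -3.51. Assay Mm01182750_m1 gave -1.65 there, against -5.86 to -4.56, while Mm01182743_m1, Mm01182747_m1 and Mm01182748_m1 gave -3.31, -4.07 and -3.82, beside group medians of -3.18, -3.98 and -3.88.

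**Figure D3:**
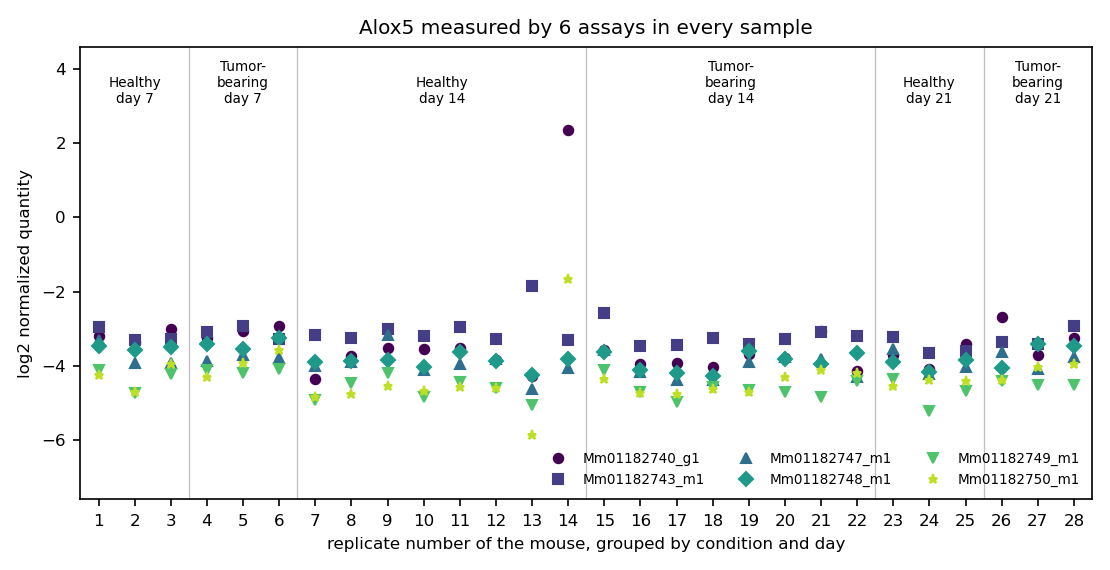
Log2 normalized quantity of Alox5 by each of its 6 assays (markers) in each of the 28 samples, ordered by day and condition. The assays keep within a narrow band in most samples, and the 2.36 of Mm01182740_g1 and -1.65 of Mm01182750_m1 in healthy replicate 14 stand apart.

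By assay Mm01182748_m1, the steadiest, the day 7 values were -3.58, -3.50 and -3.48 in healthy and -3.56, -3.42 and -3.24 in tumor-bearing mice. At day 14 they ran from -4.24 through a median of -3.88 to -3.63 in healthy mice and from -4.27 through -3.88 to -3.60 with a tumor. At day 21 they were -4.17, -3.90 and -3.86 in healthy and -4.06, -3.48 and -3.42 in tumor-bearing mice. All day 14 values lay below all day 7 values in both conditions, and tumor-bearing mice at day 21 overlapped both. The share of all assays that were apart between days 7 and 14 was not computed.

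This assay fell by 0.42 ± 0.11 from day 7 to day 14 averaged over the conditions (limma adjusted p = 0.0484). It was the 1 of 16 to pass, where 2.66% of 564 assays passed (1.95% higher and 0.709% lower). Without adjustment 5 of 16 had p under 0.05, against 18.6% of all assays. They were Pla2g2e, Pla2g7, Alox5ap and the Alox5 assays Mm01182748_m1 and Mm01182749_m1. The other 5 Alox5 assays did not pass, with changes of -0.39 ± 0.14 (Mm01182749_m1, adjusted p = 0.153), -0.32 ± 0.33 (Mm01182750_m1), -0.27 ± 0.60 (Mm01182740_g1), -0.24 ± 0.16 (Mm01182747_m1) and 0.03 ± 0.17 (Mm01182743_m1). As the median of the 6 centred assays the change was -0.37 ± 0.12 (95% interval -0.61 to -0.12) and did not pass either (adjusted p = 0.104). When panels entered as a fixed block Mm01182748_m1 changed by -0.25 (adjusted p = 0.662), and without panels D and G by -0.35 (adjusted p = 0.280). Leaving out 1 mouse ended the call in 22 of 28 cases (adjusted p 0.0532 to 0.219, change -0.45 to -0.38); it held only without healthy replicate 12, 13 or 14 or tumor-bearing replicate 15, 22 or 26. Without healthy replicate 14, Mm01182740_g1 changed by -0.65 and passed (adjusted p = 0.0419). Macrophage markers changed by a median of -0.14 between these days with 0 of 6 called (summed level in healthy mice 1.63 to 1.96 at day 7 and 1.03 to 2.07 at day 14, with a tumor 1.76 to 2.30 and 1.40 to 2.32). The neutrophil list had 1 of 9 higher (median -0.25), and the part of either cell type in the Alox5 change was not tested.

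In healthy mice the per-sample Alox5 value (the median of the centred assays) averaged -3.66 ± 0.22 (SD, n = 3), -3.99 ± 0.25 (n = 8) and -4.03 ± 0.19 (n = 3) at days 7, 14 and 21. With a tumor the same days gave -3.52 ± 0.14, -3.95 ± 0.23 and -3.77 ± 0.19. Tumor-bearing and healthy mice differed by 0.14 ± 0.19, 0.05 ± 0.12 and 0.25 ± 0.19 (SE) at the 3 days, with adjusted p of 0.997, 0.908 and 0.811.

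By the single assays at day 14, Mm01182740_g1 ran from -4.36 through a median of -3.65 to 2.36 in healthy and from -4.15 through -3.86 to -3.06 in tumor-bearing mice. Mm01182743_m1 ran from -3.31 through -3.18 to -1.85 and from -3.48 through -3.25 to -2.57, and Mm01182747_m1 from -4.62 through -3.98 to -3.17 and from -4.39 through -4.04 to -3.57. Mm01182749_m1 ran from -5.07 through -4.60 to -4.21 (7 healthy samples) and from -4.98 through -4.68 to -4.13, and Mm01182750_m1 from -5.86 through -4.64 to -1.65 and from -4.76 through -4.49 to -4.13. The groups overlapped in every assay. The tumor-bearing minus healthy difference of Mm01182740_g1 was -0.78 ± 0.63 with all reactions and 0.08 ± 0.18 once reactions over 4 cycles off were left out, while the other 5 lay between -0.23 and 0.02 with all reactions. Mm01182743_m1, highest in healthy replicate 13, went from -0.23 to -0.09 without the 3 samples with over 100 missing reactions. The signs of Mm01182747_m1 and Mm01182750_m1 turn when the raw Cq values of a sample are centred on their median (0.06 and 0.06).

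At days 7 and 21 the same assays were read in 3 mice per condition. Mm01182740_g1 gave -3.36, -3.21 and -3.02 in healthy and -3.25, -3.06 and -2.92 in tumor-bearing mice at day 7, and -4.08, -3.72 and -3.41, and -3.70, -3.26 and -2.69 at day 21. Mm01182743_m1 gave -3.32, -3.29 and -2.95, and -3.29, -3.09 and -2.92 at day 7, and -3.67, -3.60 and -3.22, and -3.41, -3.35 and -2.93 at day 21. Mm01182747_m1 gave -3.93, -3.92 and -3.31, and -3.87, -3.80 and -3.70 at day 7, and -4.23, -4.03 and -3.55, and -4.09, -3.77 and -3.62 at day 21. In these 3 assays the conditions overlapped at both days. Mm01182749_m1 gave -4.74, -4.22 and -4.13, and -4.21, -4.11 and -4.09 at day 7, and -5.21, -4.67 and -4.36, and -4.52, -4.51 and -4.42 at day 21. Mm01182750_m1 gave -4.71, -4.26 and -3.95, and -4.30, -3.93 and -3.59 at day 7, and -4.56, -4.41 and -4.38, and -4.39, -4.04 and -3.96 at day 21. These 2 assays overlapped between the conditions at both days too.

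Alox5ap encodes FLAP, the membrane protein that hands arachidonic acid to 5-lipoxygenase. Its day 7 values were -0.78, -0.43 and -0.29 in healthy and -0.44, -0.31 and -0.29 in tumor-bearing mice. At day 14 they ran from -1.33 through a median of -0.68 to -0.46 in 7 healthy mice and from -0.99 through -0.61 to -0.21 in 8 tumor-bearing mice. At day 21 they were -1.30, -1.08 and -0.86 in healthy and -0.76, -0.75 and -0.69 in tumor-bearing mice, with every healthy sample below every tumor-bearing one. The day 21 difference of 0.35 ± 0.20 did not pass (adjusted p = 0.677), nor did the mean over the days of 0.22 ± 0.10 (adjusted p = 0.539; higher in 7 of 9 same-panel pairs and lower in 1).

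Over time Alox5ap changed by -0.49 ± 0.15 from day 7 to day 21 averaged over conditions (adjusted p = 0.0699), with -0.59 ± 0.20 in healthy and -0.39 ± 0.20 in tumor-bearing mice. It passed when each sample's raw Cq values were centred on their median (-0.62, adjusted p = 0.0323), a scaling that moves the median of all assays in this comparison from 0.10 to -0.02. It also passed when only the groups of days 7 and 21 were fitted (-0.48, adjusted p = 0.0445) and without healthy day 14 replicate 8 (-0.50, adjusted p = 0.0323), the sample with the lowest value.

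Lta4h, the hydrolase that makes leukotriene B4, was the steadiest member, with all 28 values between -0.88 and -0.06. Its tumor-bearing minus healthy differences were 0.14 ± 0.19, 0.08 ± 0.12 and 0.02 ± 0.19 at days 7, 14 and 21. Alox15, a lipoxygenase that makes precursors of lipoxins and other resolving mediators, spread most among the members without an isolated early reaction, from -10.37 to -4.55, at a median Cq of 25.3. Its differences were 0.58 ± 0.82, 0.56 ± 0.52 and 0.45 ± 0.82 at the 3 days, above 0 each time but within their errors.

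**Figure D4:**
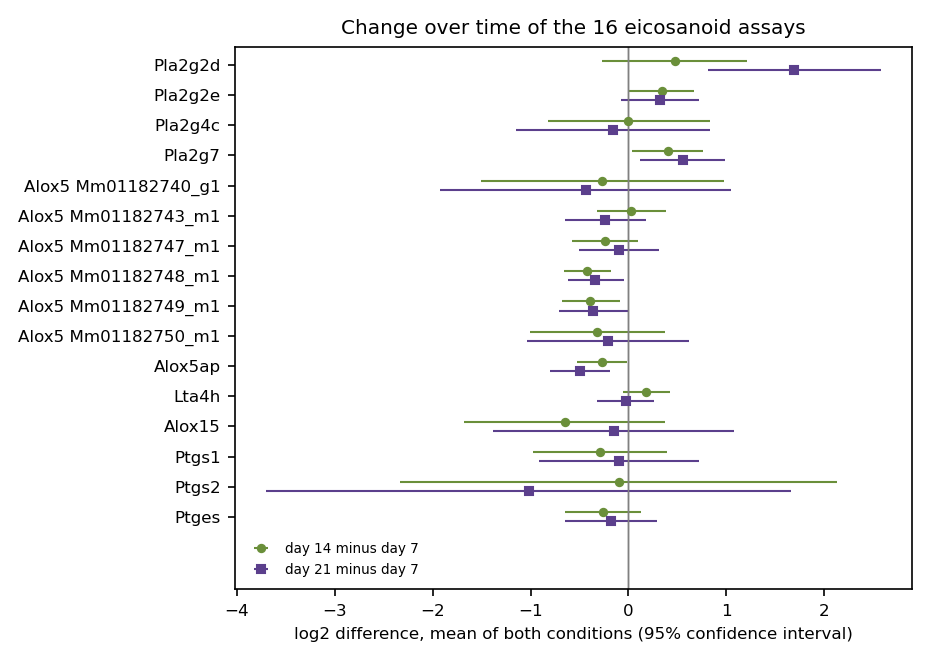
Log2 change from day 7 to day 14 (circles) and from day 7 to day 21 (squares), averaged over conditions, with the 95% confidence interval, for the 16 assays. The interval of Pla2g2d at day 21 runs from 0.81 to 2.58, and that of Alox5 Mm01182748_m1 at day 14 from -0.66 to -0.18.

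Ptgs2, the inducible cyclooxygenase, had day 7 values of -5.01, -4.28 and -3.80 in healthy and -5.01, -4.47 and -3.93 in tumor-bearing mice. At day 14 healthy values ran from -6.60 through a median of -4.72 to 6.18, and tumor-bearing values from -6.19 through -5.49 to -4.87. At day 21 they were -5.17, -4.26 and -4.15 in healthy and -6.72, -6.36 and -4.90 in tumor-bearing mice. The groups overlapped at every day.

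The 6.18 came from healthy replicate 14, where Ptgs2 reached its threshold at a Cq of 12.5 against a group median of 23.2; the other 7 healthy samples ran from -6.60 to -3.76. The authors' deposited table of comparisons gives a day 14 fold of 0.256 for Ptgs2, and the model here gave 0.230. The difference was -2.12 ± 1.14 (95% interval -4.48 to 0.24, adjusted p = 0.536) with all reactions, and -0.59 ± 0.38 (95% interval -1.39 to 0.21, adjusted p = 0.611) once reactions over 4 cycles off the group median were left out. At day 21 it was -1.47 ± 1.78 (adjusted p = 0.923) and as the mean of the days -1.23 ± 0.92 (adjusted p = 0.723), which became -0.72 without the early reaction (adjusted p = 0.397). The SE is estimated over all groups, so the early day 14 reaction also widens the day 21 error. The day 21 error without that reaction is not given here. Ptgs2 was lower in the tumor-bearing mouse in 9 of the 10 matched pairs (median difference -0.90). Alox5 assay Mm01182748_m1 was as one-sided, higher in 9 of 10 pairs (median difference 0.12), and the share over all assays was not computed.

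Ptgs1, the constitutive cyclooxygenase, ran from -7.46 to -3.84 and did not pass at any day, with differences of -0.23 ± 0.54, -0.36 ± 0.35 and 0.07 ± 0.54. Its lowest value came from tumor-bearing day 14 replicate 15, where the other 7 samples ran from -4.80 to -4.15. That sample also held the lowest Ptges (-3.95), Pla2g4c (-11.14), Pla2g2d (-4.38) and Pla2g2e (-4.34) of all 28. Ptges, the inducible synthase that turns the cyclooxygenase product into prostaglandin E2, had differences of -0.11 ± 0.31, -0.10 ± 0.20 and 0.01 ± 0.31 at the 3 days.

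**Figure D5:**
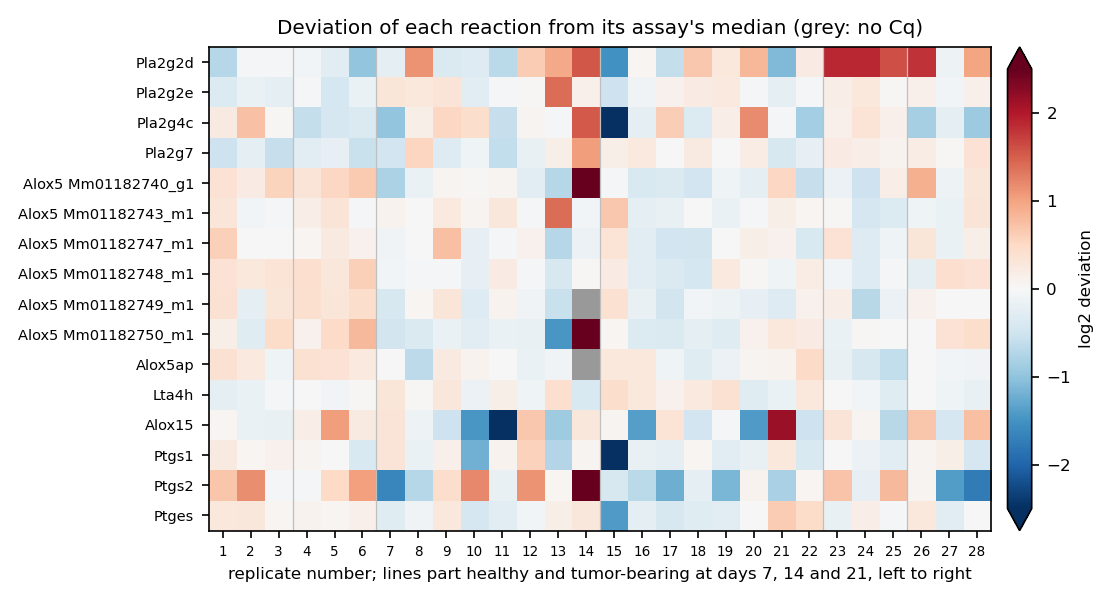
Deviation of each reaction from the median of its assay over all samples (log2, colour, with larger deviations drawn in the end colours; grey without Cq), for the 16 assays in rows and the 28 samples in columns. The 3 healthy day 21 samples (replicates 23 to 25) and tumor-bearing replicate 26 are high in Pla2g2d, and healthy replicate 14 holds high reactions in single assays while others of the same gene stay near 0.

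Of 30 other genes of the eicosanoid and related lipid pathways that were looked for, 7 were on the panel, with 8 assays. None of the 8 passed between tumor-bearing and healthy mice at any day. From day 7 to day 14, averaged over conditions, Gpr17, an orphan receptor once proposed for cysteinyl leukotrienes, rose by 0.77 ± 0.20 (adjusted p = 0.0429), and Ltb4r1, the high-affinity leukotriene B4 receptor, fell by 0.92 ± 0.22 (adjusted p = 0.0414), in the comparison in which 2.66% of all 564 assays passed. Neither call held with panels as a fixed block (0.65, adjusted p = 0.611, and -0.67, adjusted p = 0.662), with centred raw Cq (adjusted p = 0.110 and 0.0675) or without panels D and G (adjusted p = 0.364 and 0.105). Leaving out 1 sample ended the call of Gpr17 in 16 of 26 cases (0.74 to 0.81) and that of Ltb4r1 in 13 of 28 (-1.03 to -0.82). The other 6 assays did not pass: Anxa1 0.18 ± 0.08, Cmklr1 0.15 ± 0.14, Ephx2 -0.01 ± 0.36, Ptafr 0.02 ± 0.17 and the 2 Pparg assays 0.36 ± 0.15 and 0.42 ± 0.15. From day 14 to day 21 Ltb4r1 changed by 0.63 ± 0.23 (adjusted p = 0.127), and from day 7 to day 21 none of the 8 passed. The median of the 8 was 0.16 and 0.11 from day 7 to days 14 and 21, beside 0.05 and 0.10 over all assays.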

How the data were processed

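The authors deposited raw quantification cycles (a score in cycles, lower for more template) and normalized values, which are ratios on a linear scale, and a table of fold changes without errors, per the file headers. The deposited ratio equals 2 to the power of a mean reference Cq minus the assay's Cq (largest error 2.96e-05), the mean being over 5 of the 16 assays marked as reference, whose names are not reported here. How Cq was called is not stated per the labels. Of 18144 reactions 2244 (12.4%) lack a Cq and were left missing.

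The log2 of the deposited ratio was fitted with limma 3.58.1 in R 4.3.3 (statmod 1.5.0), with 1 mean per condition and day over all 28 samples and the panel as a random block (correlation 0.054). Assays needed a value in 50% of the samples of 1 group (608 of 648) and 2 values per group compared. P-values were adjusted by Benjamini-Hochberg over all assays within a comparison, and adjusted p under 0.05 counts as passing. The fit was tested on simulated data. Each sample is 1 mouse. The number of mice and, at late Cq, the noise of single reactions limit the precision.

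The genes and marker lists (neutrophil, macrophage, dendritic cell, other pathway genes) were chosen with earlier results of these data known. Members are described by role. Values by group (all 3 at days 7 and 21, the lowest, median and highest at day 14) are given for members that passed in any comparison, the 2 with the smallest p in each comparison of conditions or of days averaged over conditions, and all assays of Alox5. Alternatives were scaling, panel, missing reactions, filters, late or stray reactions, groups fitted and samples left out; the median of the Alox5 assays and leaving out 3 samples with over 100 missing reactions were chosen after seeing the data. Assays were matched to RefSeq by accession (15) or symbol (1).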

Additional observations from a re-analysis of the deposited data

Results flagged for a closer look

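Among 32 day 14 groups of 7 or 8 samples, 7 held 1 sample far from the others. Chance gives about 1 in 20 for independent groups. The groups here come from the same samples, and Alox5 enters with 6 assays, so that rate cannot be set against the count. In healthy replicate 14 the far values were Ptgs2 at 6.18 (the others -6.60 to -3.76), Alox5 Mm01182740_g1 at 2.36 (-4.36 to -3.51) and Alox5 Mm01182750_m1 at -1.65 (-5.86 to -4.56). In healthy replicate 13 they were Alox5 Mm01182743_m1 at -1.85 (-3.31 to -2.96) and Pla2g2e at -2.42 (-4.08 to -3.50). In tumor-bearing replicate 15 they were Ptgs1 at -7.46 (-4.80 to -4.15) and Alox5 Mm01182743_m1 at -2.57 (-3.48 to -3.10). Healthy replicates 13 and 14 lacked a Cq in 173 and 113 reactions, tumor-bearing replicate 15 in 65. The cause of these values was not tested.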

How the results depend on the processing

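Pairing by replicate was not possible because the groups share no replicate numbers. The panels that conditions share entered as a block instead, and pairs matched for day and panel were only described. The count of eicosanoid assays past the threshold between tumor-bearing and healthy mice stayed 0 at each day and for the mean under all 12 settings and all 28 omissions of 1 sample. The 0 of 15 Alox5 pair differences at day 14 stayed 0 under the 2 alternatives run for it (late and far reactions left out) and all 16 omissions of a day 14 sample. The change from day 7 to day 14 (1 assay) gave 0 with centred raw Cq, the panel as a fixed block, without panels D and G, with missing reactions at the largest Cq, with only the groups compared and with the Alox5 median, 2 without reactions over 4 cycles from their group median, 3 without the 3 samples with over 100 missing reactions, and 0 to 2 when 1 sample was left out. The change from day 7 to day 21 (1 assay) gave 2 with centred Cq, 0 with the fixed block, 0 with the largest Cq, 3 with only the groups compared, 2 without those 3 samples, and 0 to 2 when 1 sample was left out. From day 14 to day 21 (0) it gave 1 without the 3 samples and 0 to 1 when 1 sample was left out. Healthy mice alone (0) gave 1 from day 14 to 21 without the 3 samples and 1 from day 7 to 21 with only the groups compared. The cause was not tested.

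Differences near 0 changed sign. At day 14, Alox5 Mm01182740_g1 was 0.08 without far reactions; Mm01182747_m1 was 0.06 with centred Cq, 0.16 with the fixed block and 0.16 without panels D and G; Mm01182750_m1 was 0.06 with centred Cq and 0.14 without the 3 samples, and Mm01182748_m1 and Mm01182749_m1 were -0.03 and -0.02 there. When 1 sample was left out these 5 ran from -0.96 to 0.08, -0.17 to 0.04, -0.27 to 0.38, -0.04 to 0.07 and -0.05 to 0.09. From day 7 to day 14, Mm01182740_g1 was 0.11 without panels D and G, and Mm01182743_m1 was -0.02 with centred Cq and -0.04 without the 3 samples (-0.05 to 0.09 when 1 sample was left out). With missing reactions at the largest Cq, the changes of Alox5ap were 0.07 (healthy) and 0.27 (tumor-bearing) from day 7 to 21, and 1.69 and 0.17 averaged from days 14 and 7 to day 21; its 1 missing reaction then counts as a very low level. Over all assays, calls at day 14 ran from 3 to 15 (main 14), at day 21 from 0 to 9 (7), for the mean of the days from 4 to 15 (14), and averaged from day 7 to 14, 14 to 21 and 7 to 21 from 0 to 43 (15), 0 to 65 (5) and 2 to 25 (12).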
